A study of Mus musculus with 6 samples.

Results

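Integrins are receptors made of an alpha and a beta chain that hold cells to laminins, fibronectin and other matrix proteins. Inside the cell their beta tails are bound by talin and kindlin, and a plaque of adaptors and kinases, the focal adhesion, ties them to actin and passes signals on. In carcinoma cells these genes are known for their part in spreading, migration and invasion. The genes described here are 35 listed symbols of this machinery: 9 alpha chains, 6 beta chains, 2 laminin chains, 9 linkers to actin, 5 kinases and docking proteins, the zyxin relatives Zyx and Lpp, and the caveolins Cav1 and Cav2. The list was drawn up from gene names, with earlier results of these data known. Each gene had 1 probe set, the one with the highest mean over the 6 arrays among those annotated to that symbol alone. Of the 35, 32 were measured, among 12393 genes in all, and Itga1, Tns3 and Ptk2 were not analysed here.

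Messenger RNA was measured on 6 Affymetrix mouse arrays, 3 labelled miR-34a and 3 labelled vector. The miR-34a group came from 344SQ cells with inducible expression of the microRNA miR-34a, and the vector group from 344SQ cells carrying the control vector. Both share the same background, a metastatic mouse lung cancer line with high Zeb1. The labels name no alleles, inducing agent, mouse strain, age or time, and they differ on whether cultured cells or tumours grown in mice were used. The titles call the miR-34a samples tumors and name no tissue for the vector samples. Summed over 10 markers each, fibroblast genes had intensities of 11846 to 47832 over the 6 arrays and macrophage genes 13050 to 29360. The values are therefore not taken as those of tumour cells alone. 344SQ is a single line, and the labels do not tie replicates to separate cultures or animals. The p-values therefore reflect the scatter of these samples alone, and that scatter may be technical. Precision is limited by 3 arrays per group.

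The label was checked against 10 markers of epithelial tumour cells, of which 0 passed the test (limma, with Cldn4 alone at an unadjusted p under 0.05). The keratin genes Krt8, Krt18, Krt19 and Krt7 and the cadherin gene Cdh1 had intensities of 11682 to 24926 in miR-34a and 11940 to 24779 in vector arrays. Epcam had 950.7 to 1142 in miR-34a and 304.8 to 1463 in vector arrays, and the claudin genes Cldn4 and Cldn7 had 186.9 to 322.7 in miR-34a and 199.3 to 440.1 in vector arrays. Zeb1 had 1556, 1648 and 1574 in miR-34a arrays and 1382, 1677 and 1646 in vector arrays, a difference of 0.03 (limma adjusted p = 0.896). The lung lineage factor gene Nkx2-1 had 248.3 to 263 in miR-34a and 261.2 to 347.8 in vector arrays. Levels of different probe sets are not comparable, so these values do not rank the markers. Without detection calls, dim signals cannot be separated from background here. The vector 1 array stood apart from the others: on the first principal component of all genes, with 61% of the variance, the miR-34a arrays lay at 16.25 to 21.66, against -43.33 for vector 1 and -5.42 and -8.75 for the other vector arrays. The summed intensity of 10 fibroblast markers was 33516 to 47832 in miR-34a arrays, against 11846 in vector 1 and 32203 and 41552 in the other vector arrays. Several results that rest on vector 1 are given with and without it.

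MicroRNAs pair with messenger RNAs mainly through bases 2 to 8, the seed. The mature strand that the miR-34a group was made to express is shown for its seed, in capitals, as RefSeq gives it for GRCm38.p6 at chr4:150068473-150068494, plus strand. Seed sites in the members' transcripts were not analysed here, and neither was the level of mature miR-34a.
mmu-miR-34a-5p: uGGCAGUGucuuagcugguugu

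Setting miR-34a against vector addresses which of these transcripts differ when the microRNA is expressed. Most of them differed little. Itgb5, the beta chain that pairs with the alpha V chain to bind vitronectin, was 2.35-fold higher in miR-34a samples. Lama5, a laminin chain of epithelial and vascular basement membranes, was 1.45-fold higher, and Ilk, the integrin-linked pseudokinase that holds the parvin and PINCH adaptors at adhesions, 1.36-fold higher. These 3 passed the test and 0 members passed as lower, at a limma adjusted p under 0.05 over all 12393 genes. The background was 11.7% of all genes, with 6.5% higher and 5.25% lower, so 3 of 32 (9.38%) was near the share over all genes. Without adjustment, 5 members with differences above 0 and 6 below 0 had a limma p under 0.05, as had 28.2% of all genes. No filter on low values was applied, and 28 of the 32 members were outside the 4131 dimmest genes. With those dimmest genes left out, 3 of the 28 passed as higher and 1 as lower, beside 18.4% of the 8262 genes kept (10.4% higher).

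The median difference over the 32 members was -0.011 on the log2(intensity + 16) scale, miR-34a minus vector, beside 0.024 over all genes. Of the members 15 lay above 0 and 17 below. The median size of a difference, its sign left aside, was 0.173 for members and 0.153 for all genes. In 12 members (37.5%) the values of the groups did not overlap, 5 with miR-34a above and 7 below, while among all genes this held for 34.9%, with 20.8% above and 14.0% below. Vector 1 was the lowest of the 6 arrays in 10 members and the highest in 9, and among all genes in 21.6% and 30.0%.

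**Figure D1:**
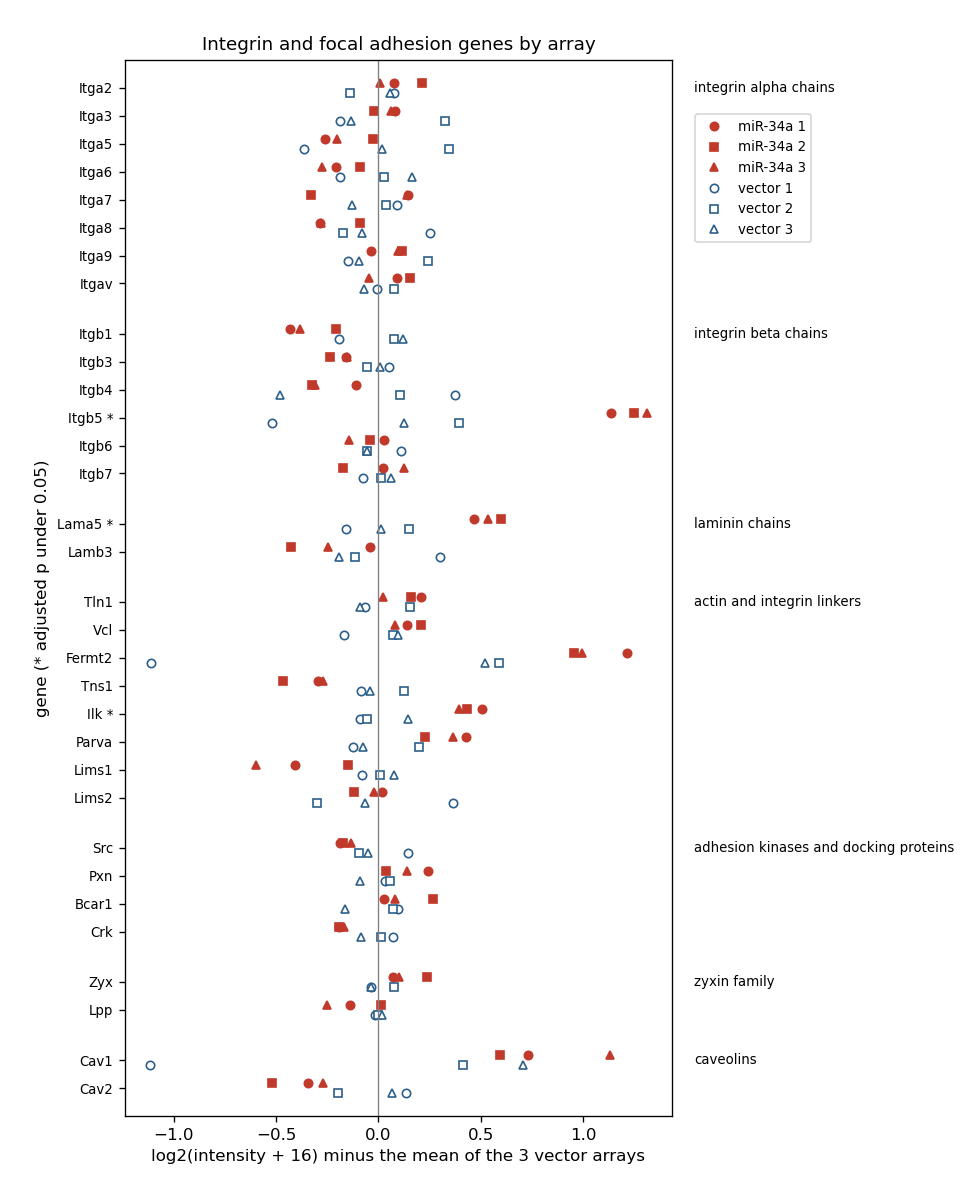
Each row is 1 of the 32 measured genes, grouped by role, and each symbol is 1 array, at its log2(intensity + 16) minus the mean of the 3 vector arrays (miR-34a filled, vector open; an asterisk marks an adjusted p under 0.05). Itgb5, Lama5 and Ilk have all miR-34a arrays to the right of the vector arrays, and vector 1 lies far to the left in Fermt2 and Cav1.

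Among the matrix ligands in the list, Lama5 had intensities of 2436, 2669 and 2556 in miR-34a arrays, against 1572, 1952 and 1772 in vector arrays. The groups did not overlap, and vector 1 was the lowest. The means were 11.33 ± 0.0655 in miR-34a and 10.79 ± 0.155 in vector arrays (log2 scale, SD, n = 3), a difference of 0.53 ± 0.101 (SE; limma adjusted p = 0.0204). The other Lama5 probe set differed by 0.44. Lamb3, the beta chain of the laminin found under epithelia, had 3261, 2487 and 2820 in miR-34a arrays and 4140, 3098 and 2934 in vector arrays. Its groups overlapped and it did not pass, at -0.24 ± 0.159 (SE), and at -0.09 without vector 1. The call of Lama5 did not hold without any 1 of the miR-34a arrays or without vector 3, where adjusted p ran up to 0.0914. Its difference stayed between 0.45 and 0.61 in the 6 fits without 1 array.

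By the brightest probe set, 0 of the 8 measured alpha chains passed the test (limma), 0 had an unadjusted p under 0.05, and 0 had groups that did not overlap. Itga3, the alpha chain of a laminin receptor, had 4752, 4423 and 4692 in miR-34a arrays and 3938, 5636 and 4091 in vector arrays, a difference of 0.04. Itga6, the laminin receptor chain that pairs with Itgb1 or Itgb4, had 7033, 7638 and 6708 in miR-34a arrays and 7136, 8272 and 9099 in vector arrays, a difference of -0.19. In both, the arrays of the groups were interleaved by these probe sets. The other Itga6 probe set had 4215, 5342 and 4287 in miR-34a arrays and 2912, 3828 and 3786 in vector arrays. That was a difference of 0.40 without overlap, of opposite sign, which did not pass. The other Itga3 probe sets, at 0.16 and -0.31, and the other Itga5 one, at -0.15, did not pass either. Itgav, the partner of Itgb5, had 8436, 8820 and 7673 in miR-34a arrays, against 7878, 8360 and 7553 in vector arrays, a difference of 0.07 by its brightest probe set. The fibronectin receptor chain Itga5 differed by -0.16, the collagen receptor chain Itga2 by 0.10, the laminin receptor chain of muscle Itga7 by -0.01 and Itga9, a receptor chain for tenascin, by 0.06. Itga8, a chain of the nephronectin receptor, was dim, at 18.79 to 23.74 in miR-34a and 21.59 to 34.42 in vector arrays, and differed by -0.22.

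The beta chains differed more among themselves: 1 of 6 passed as higher and the other 5 had differences below 0. Itgb5 had intensities of 2829, 3060 and 3196 in miR-34a arrays, against 886, 1680 and 1394 in vector arrays. Each miR-34a array was above each vector array, and vector 1 was the lowest. The means were 11.57 ± 0.0888 in miR-34a and 10.34 ± 0.468 in vector arrays (log2 scale, SD, n = 3), a difference of 1.23 ± 0.218 (SE; limma adjusted p = 0.0174). All 4 Itgb5 probe sets passed as higher, with differences of 1.00 to 1.45. Without vector 1 the difference was 0.98 (adjusted p = 0.00216), and the call did not hold without miR-34a 1, miR-34a 2 or miR-34a 3, where adjusted p ran from 0.0588 to 0.084 and the difference from 1.20 to 1.28.

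Itgb1, the beta chain shared by most laminin, collagen and fibronectin receptors, had 3652, 4276 and 3774 in miR-34a arrays, against 4307, 5199 and 5357 in vector arrays. The groups did not overlap, but the gap between miR-34a 2 and vector 1 was small. The means were 11.93 ± 0.12 in miR-34a and 12.27 ± 0.17 in vector arrays (log2 scale, SD, n = 3). The difference of -0.34 ± 0.114 (SE) did not pass (limma adjusted p = 0.101), and it passed only without vector 1, at -0.44 (adjusted p = 0.0214, beside up to 0.294 under the other settings). Itgb3, the beta chain known from platelets and vessels, was dim, with 181, 170.6 and 181.7 in miR-34a arrays and 211.4, 195.3 and 204.6 in vector arrays. All its miR-34a arrays lay below its vector arrays, with means of 7.60 ± 0.0469 in miR-34a and 7.78 ± 0.0532 in vector arrays (log2 scale, SD, n = 3), a difference of -0.18 ± 0.076 (SE; limma adjusted p = 0.172). Itgb4, the hemidesmosome chain, differed by -0.25, with 1285, 1104 and 1114 in miR-34a arrays and 1804, 1492 and 990.3 in vector arrays, where vector 3 lay below the others. The Itgb4 difference was -0.06 without vector 1 and -0.49 without vector 3. The epithelial chain Itgb6 at -0.05 and the lymphocyte chain Itgb7 at -0.01 lay nearest to 0.

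Ilk, Parva and the PINCH genes Lims1 and Lims2 encode the proteins of 1 complex at the integrin tail. Ilk had 2385, 2264 and 2208 in miR-34a arrays, against 1572, 1610 and 1854 in vector arrays. The groups did not overlap. The means were 11.17 ± 0.0563 in miR-34a and 10.72 ± 0.128 in vector arrays (log2 scale, SD, n = 3), a difference of 0.45 ± 0.0921 (SE; limma adjusted p = 0.0264). Ilk had 1 probe set, and its call did not hold without any 1 of the miR-34a arrays or without vector 2, where adjusted p ran up to 0.108. Its difference stayed between 0.40 and 0.52 in the 6 fits without 1 array.

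The other members of this complex did not pass. Parva, the actin-binding alpha-parvin, had 1768, 1538 and 1695 in miR-34a arrays and 1204, 1506 and 1244 in vector arrays, with means of 10.71 ± 0.102 in miR-34a and 10.37 ± 0.172 in vector arrays (log2 scale, SD, n = 3) and a difference of 0.34 ± 0.111 (SE; limma adjusted p = 0.0956). It passed without vector 2 (adjusted p = 0.0459, beside up to 0.506 under the other settings), and its other probe set differed by -0.11. Lims1 had 1952, 2344 and 1708 in miR-34a arrays, against 2454, 2606 and 2735 in vector arrays. All miR-34a arrays lay below the vector arrays, with means of 10.97 ± 0.227 in miR-34a and 11.35 ± 0.0779 in vector arrays (log2 scale, SD, n = 3) and a difference of -0.38 ± 0.125 (SE; limma adjusted p = 0.0945), and the mean of all its probe sets passed as lower. Lims2 differed by -0.04. Rsu1, a Ras suppressor protein that binds PINCH and stands in the list of other scaffold genes, fell to 1681, 1708 and 1724 in miR-34a arrays, against 2313, 2235 and 2485 in vector arrays. Its difference was -0.46 ± 0.0776 (SE; limma adjusted p = 0.016), and the call did not hold without any 1 of the miR-34a arrays or without vector 3.

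The remaining linkers did not pass. Fermt2, kindlin-2, which activates integrins together with talin, had 1784, 1492 and 1533 in miR-34a arrays, against 342.7, 1153 and 1098 in vector arrays. The miR-34a arrays all lay above the vector arrays, and vector 1 lay far below the other vector arrays. The means were 10.66 ± 0.138 in miR-34a and 9.60 ± 0.964 in vector arrays (log2 scale, SD, n = 3), a difference of 1.06 ± 0.427 (SE; limma adjusted p = 0.159). Without vector 1 the difference was smaller, 0.50, and passed (adjusted p = 0.0165, beside up to 0.332 under the other settings). Tns1, tensin 1, which binds actin and beta tails, had 598.1, 530.2 and 608.5 in miR-34a arrays and 695, 806.5 and 715.7 in vector arrays. Its groups did not overlap, with means of 9.21 ± 0.105 in miR-34a and 9.56 ± 0.111 in vector arrays (log2 scale, SD, n = 3) and a difference of -0.34 ± 0.0961 (SE; limma adjusted p = 0.0628). It passed as lower without vector 1, under quantile normalization and with the 4131 dimmest genes left out. The other Tns1 probe set passed as higher, at 0.75, and the mean of its probe sets differed by 0.21 and did not pass. Talin 1, Tln1, differed by 0.13 and vinculin, Vcl, by 0.14, both with overlapping groups.

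The kinases and docking proteins gave 0 calls in 4 measured members by limma, and 1 of the 4, Crk, had an unadjusted limma p of 0.0497. Src, the kinase that phosphorylates paxillin and p130Cas, had 2056, 2074 and 2130 in miR-34a arrays and 2586, 2194 and 2260 in vector arrays. Its groups did not overlap, and the difference was -0.16. The adaptor gene Crk had 3577, 3570 and 3638 in miR-34a arrays and 4294, 4120 and 3852 in vector arrays, also without overlap, a difference of -0.18. Paxillin, Pxn, differed by 0.14 and p130Cas, Bcar1, by 0.13, with overlapping groups. The LIM proteins Zyx and Lpp, which sit on actin fibres at adhesions, differed by 0.14 and -0.13.

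The caveolins, which coat membrane pits beside adhesions, had differences of opposite sign. Cav2 had 4813, 4257 and 5071 in miR-34a arrays, against 6710, 5329 and 6406 in vector arrays, without overlap. The means were 12.20 ± 0.129 in miR-34a and 12.58 ± 0.175 in vector arrays (log2 scale, SD, n = 3), a difference of -0.38 ± 0.117 (SE; limma adjusted p = 0.0827). It passed without vector 2 (adjusted p = 0.0459, beside up to 0.239 under the other settings). The other Cav2 probe set did not pass (limma adjusted p = 0.993 over probe sets), and the mean of its probe sets differed by -0.19. Cav1 had 5911, 5370 and 7813 in miR-34a arrays and 1628, 4736 and 5801 in vector arrays. Vector 3 lay above miR-34a 2, so the groups overlapped, and vector 1 was far below the rest. The difference of 0.82 ± 0.446 (SE; limma adjusted p = 0.283) was 0.26 without vector 1.

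Vector 1 was the lowest array in 10 of the 32 members (31.2%), beside 21.6% of all genes, and the highest in 9. Fermt2, Cav1, Itgb5, Lama5 and Ilk were among the 10. Vector 1 was also the lowest in 9 of 10 fibroblast markers, 9 of 10 macrophage markers and 3 of 10 tumour cell markers, Epcam among them. The fibroblast list had a median difference of 0.722, and 0.217 without vector 1, with Thy1 alone past the test. Without it, as with it, 1 of the 10 fibroblast markers passed as higher. Of the macrophage markers, C1qb and Fcgr1 passed as higher and Mrc1 as lower. The summed macrophage markers were 25222 to 29360 in miR-34a and 13050 to 24138 in vector arrays, and the median difference was 0.579, or 0.281 without vector 1. The 10 endothelial markers had a median difference of 0.149 and a summed intensity of 7963 to 8083 in miR-34a and 5694 to 9901 in vector arrays. Of 10 mast cell markers 4 passed as higher, Tpsb2, Cma1, Cpa3 and Fcer1a, at 3.82-fold to 11.5-fold, and each call held without any 1 array. The mast cell list had a median difference of 0.681, and 0.532 without vector 1, with sums of 6655 to 10824 in miR-34a and 3949 to 7163 in vector arrays, to which Tpsab1 gave 2248 to 4292 in miR-34a and 1573 to 5095 in vector arrays. Of 9 neutrophil markers 1, S100a9, passed as lower, while 4 had differences above 0 and 5 below. Their median difference was -0.035, and 0.025 without vector 1. The neutrophil sums were 2976 to 3335 in miR-34a and 3923 to 10798 in vector arrays. To these S100a9 gave 185.8 to 250.6 in miR-34a and 867.6 to 5270 in vector arrays. S100a8 gave 349.3 to 368.7 in miR-34a and 557.8 to 2745 in vector arrays. Of 10 pericyte and smooth muscle markers 1, Abcc9, passed as lower, with sums of 4975 to 7482 in miR-34a and 3952 to 7059 in vector arrays. Of the 10 skeletal muscle, 9 T and NK cell and 4 platelet markers measured, 0 passed by limma, and 3, 2 and 1 of them had an unadjusted p under 0.05. All 10 skeletal muscle markers had differences above 0, with a median of 0.323, and 0.338 without vector 1. Their sums were 2310 to 4178 in miR-34a and 2160 to 2350 in vector arrays. The T and NK cell sums were 4081 to 4376 and 3819 to 3960 (median difference 0.14). The platelet sums were 4095 to 4880 and 2929 to 3760 (median difference -0.053), with 2 of the 4 markers above 0 and 2 below. To these sums Pf4 gave 3220 to 3963 in miR-34a and 1853 to 2958 in vector arrays. No marker of these lists was at the lowest value of the table in all arrays. Fewer cells of a type and less RNA per cell cannot be told apart here, and the part of such cells in these results was not tested. The summed tumour cell markers were 86309 to 91753 in miR-34a and 82553 to 96346 in vector arrays, with a median difference of 0.002.

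**Figure D2:**
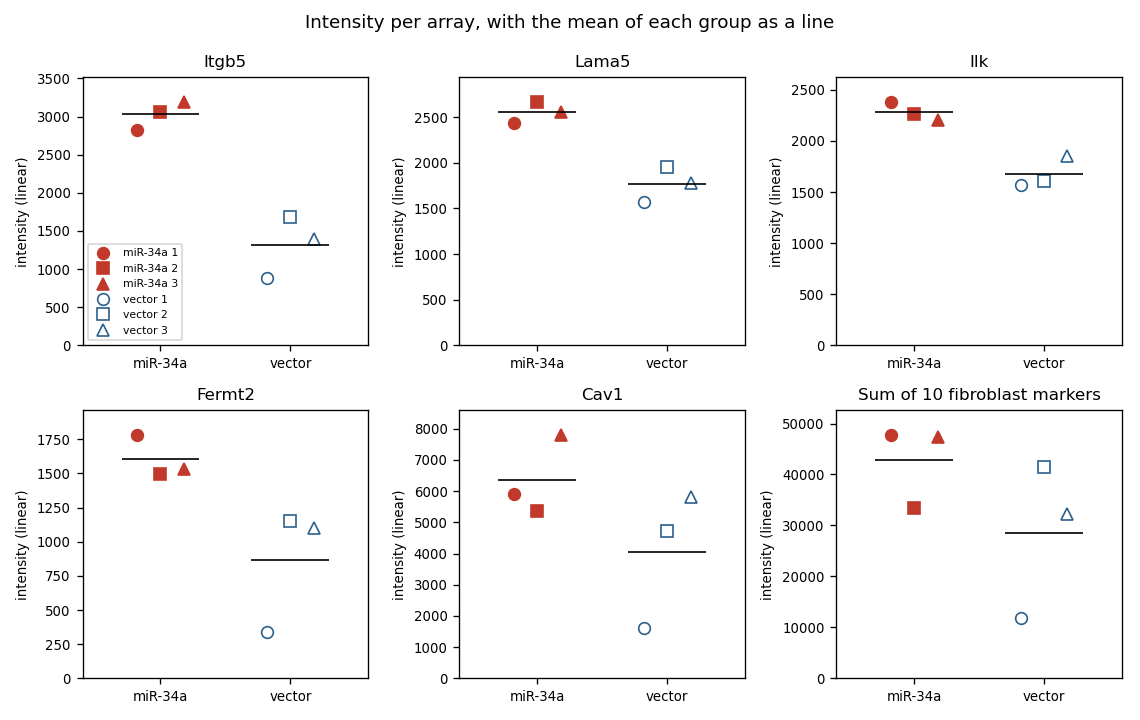
Intensity (linear scale from 0) in each array, miR-34a left and vector right, with the group mean as a line, for 5 genes and for the sum of 10 fibroblast markers. Vector 1 (open circle) is the lowest array in all panels: Fermt2 at 342.7, Cav1 at 1628 and the fibroblast sum at 11846, while Ilk has vector arrays close to each other at 1572 to 1854.

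The 32 members had 70 probe sets, and 22 members had more than 1. Each probe set was therefore also fitted on its own, with p adjusted over all 22626 probe sets that were not controls, a choice made after seeing the data. Of the 70, 16 (22.9%) passed, 9 higher and 7 lower, where 13.0% of all probe sets passed, 6.05% higher and 6.94% lower. Probe sets of the same gene are not independent: 7 of the 16 belonged to Itgb5, Lama5 and Ilk. In 8 members whose brightest probe set did not pass, another one did, and in 5 of these it had the opposite sign. Probe sets of both signs were found in 13 of the 22 members. The same counts were not made over all genes, so they do not show a trait particular to the members. Which stretch or isoform of a transcript each probe set reads is not given in the sources used here. A sign of RNA quality moved with the groups: the log2 difference of the 3' minus the 5' control probe set of Gapdh was 0.10, 0.12 and 0.10 in miR-34a arrays, against -0.04, 0.07 and -0.05 in vector arrays, without overlap. For Actb it was 0.59, 0.54 and 0.58 in miR-34a arrays, against 0.34, 0.60 and 0.34 in vector arrays, where vector 2 lay with the miR-34a arrays. Its part in these results was not tested.

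Measured from the brightest probe set, the largest such split was in Itgav, while from highest to lowest probe set Pxn and Lpp spread wider. The Itgav probe set 1421198_at had 336.2, 349.8 and 308.9 in miR-34a arrays, against 908.3, 597.9 and 760.2 in vector arrays. All miR-34a arrays were lower, with a difference of -1.13 ± 0.15 (SE; limma adjusted p = 0.0066 over probe sets), whereas the brightest differed by 0.07. The dimmer vinculin probe set, 1416157_at, had 166.9, 198.7 and 165.3 in miR-34a arrays and 315.8, 308.1 and 367.9 in vector arrays. It fell by 0.85, and the brightest Vcl probe set differed by 0.14. Paxillin's 1426085_a_at had 198.8, 170.2 and 215.3 in miR-34a arrays, against 436.6, 324.9 and 411.2 in vector arrays, and fell by 0.94. Of the other Pxn probe sets, the brightest differed by 0.14 and the third, which did not pass, by 0.33.

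Lpp had 1401, 1264 and 1070 in miR-34a arrays and 2301, 2458 and 2390 in vector arrays by 1454899_at. By this probe set Lpp fell by 0.94 (limma adjusted p = 0.00491 over probe sets), and by the 3 others it differed by -0.13, 0.03 and 0.32. The calls of these Itgav, Vcl, Pxn and Lpp probe sets held in all 6 fits without 1 array. No call of the 3 genes that passed by their brightest probe set did so.

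In Lims1 all 3 probe sets had differences below 0: the other 2 passed as lower, at -0.78 and -0.86, and the brightest, at -0.38, did not pass. By 1418231_at it had 804.8, 797.3 and 617.9 in miR-34a arrays, against 1277, 1055 and 1530 in vector arrays. Crk fell by 0.43 by 1416201_at, with 1739, 2072 and 1869 in miR-34a and 2709, 2399 and 2562 in vector arrays. In Src and Tns1 the other probe set was higher. Src had 2259, 2130 and 2163 in miR-34a arrays and 1337, 1709 and 1327 in vector arrays by 1450918_s_at, a rise of 0.59, where the brightest differed by -0.16. Tns1 had 383.6, 358 and 439.3 in miR-34a and 165.3, 288.1 and 241.1 in vector arrays by 1449405_at, a rise of 0.75, where the brightest differed by -0.34. The calls of these Lims1, Src and Tns1 probe sets held only without vector 1 or without vector 2, and that of Crk also without miR-34a 2.

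**Figure D3:**
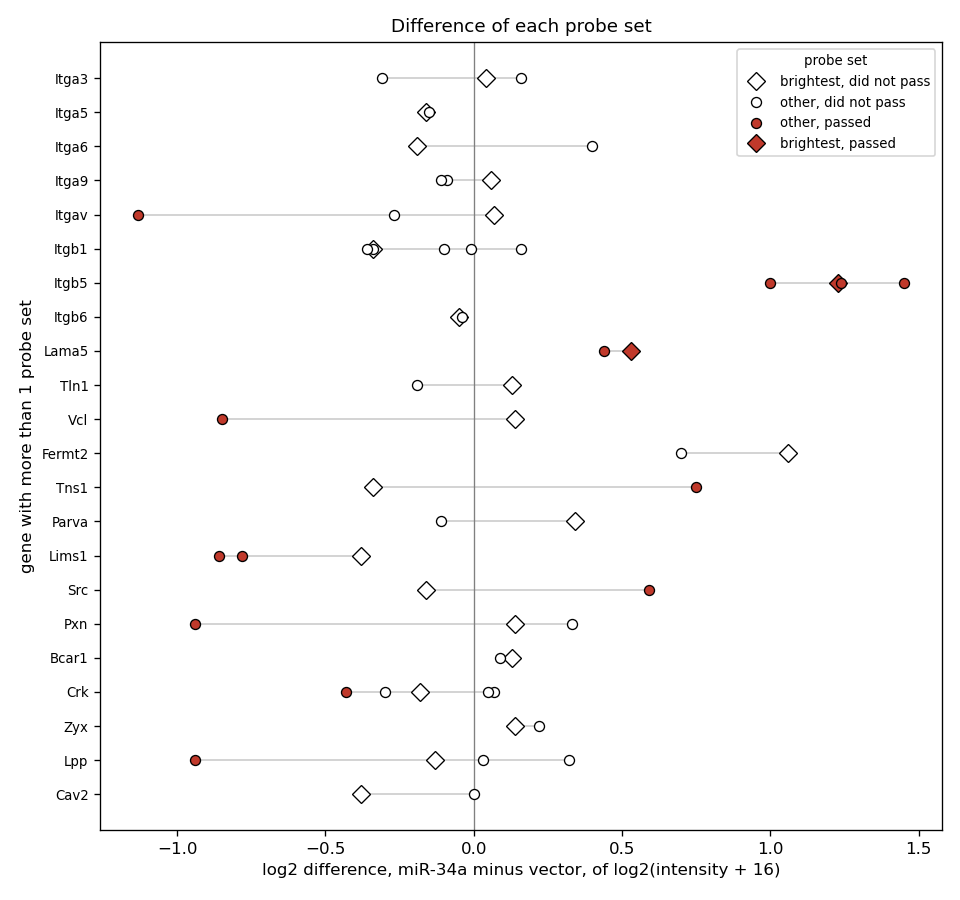
Log2 difference, miR-34a minus vector, of every probe set of the 22 genes with more than 1 (diamonds mark the brightest, circles the others, filled symbols passed over all probe sets). The 4 Itgb5 probe sets lie together at 1.00 to 1.45, and single Itgav, Vcl, Pxn and Lpp probe sets lie at -0.85 to -1.13, far from the brightest ones.

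**Figure D4:**
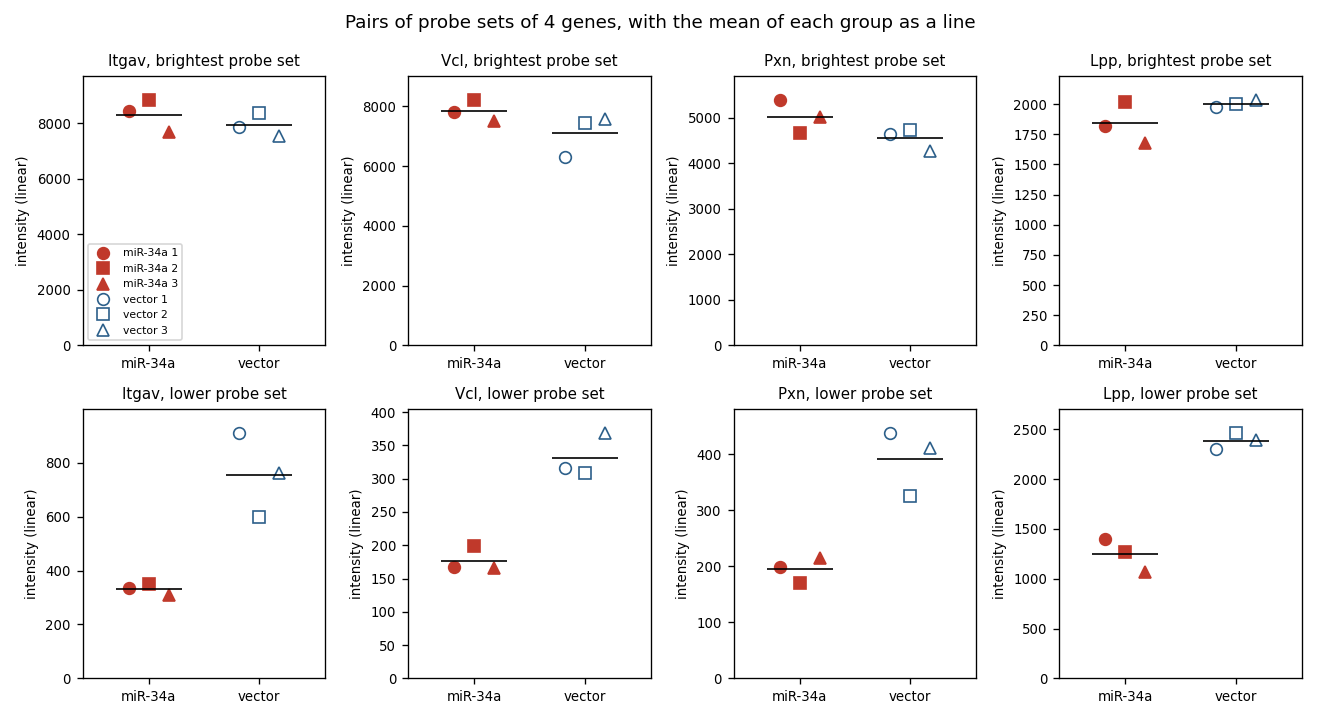
Intensity (linear scale from 0) per array for the brightest probe set (top) and the one that passed as lower (bottom) of 4 genes, miR-34a left and vector right, with group means as lines. In the bottom row all miR-34a arrays lie below all vector arrays, with Itgav at 308.9 to 349.8 against 597.9 to 908.3, and in the top row the groups overlap.

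The wider pathway was read from 6 lists of other genes. The lists were chosen with earlier results of these data known, so their share beside that of all genes is not independent support for a shift. Of 132 listed, 105 were measured, and 13 passed as higher and 4 as lower (16.2%, beside 11.7% of all genes), with a median difference of 0.138, beside 0.024. Basement membrane and matrix ligands held the largest of these changes. Lamb2, a laminin beta chain of vessels and muscle, was 1.92-fold higher, with 878.2, 754.7 and 907.4 in miR-34a arrays and 415.5, 468 and 412.6 in vector arrays. Lama2, the laminin chain of muscle and nerve, was 1.79-fold higher, with 358, 280.7 and 343.7 in miR-34a and 184.1, 166.7 and 173.5 in vector arrays. Thbs3, a thrombospondin, rose 2.30-fold, to 550.9, 522.2 and 498.1 in miR-34a arrays, against 210.8, 221.3 and 224.2 in vector arrays (1.20 ± 0.0783, SE; limma adjusted p = 0.00143). In each of these 3 genes the groups lay far apart, and each call held without any 1 array.

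Of 13 basement membrane genes measured, Agrn, which encodes the heparan sulfate proteoglycan agrin, also rose, by 0.53, and Npnt, which encodes the Itga8 ligand nephronectin, fell, to 1212, 2090 and 1466 in miR-34a arrays, against 2508, 3255 and 3173 in vector arrays (-0.93 ± 0.205, SE; limma adjusted p = 0.032). Of the 18 other matrix ligands, Thbs4 at 0.93 and Fbln5, fibulin-5, at 1.43 were also higher, and 0 were lower. The median of these 18 was 0.673, and 0.254 without vector 1, which was the lowest array in 10 of them. Fn1, fibronectin, was among those that did not pass, with 11963, 13632 and 12430 in miR-34a arrays and 4666, 10005 and 10530 in vector arrays. Its difference was 0.68, and 0.30 without vector 1, and it is named here after its values were seen. The calls of Agrn and Fbln5 did not hold without any 1 of the miR-34a arrays or without vector 3, that of Npnt without miR-34a 1, miR-34a 3, vector 2 or vector 3, and that of Thbs4 without miR-34a 1, miR-34a 3 or vector 2.

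Of 34 other scaffold and adaptor genes, 4 were higher and 1, Rsu1, was lower. Csrp1, a LIM protein of actin fibres, rose by 0.76 and held its call without any 1 array, with 4115, 3706 and 3828 in miR-34a and 2193, 2480 and 2198 in vector arrays. The zyxin relatives Trip6 and Limd1 rose by 0.41 and 0.40, and Git1, a paxillin-binding scaffold, by 0.46. Of 25 kinases, phosphatases and GTPases, the phosphatase genes Ptpn1 and Ptpra rose by 0.62 and 0.36, and the Src family kinase gene Yes1 and the integrin-activating GTPase gene Rap1a fell by 0.59 and 0.40. Of 7 other caveola genes, Ehd2, which encodes an ATPase of the caveolar neck, rose by 0.44.

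These smaller calls did not hold in all 6 fits without 1 array. Those of Trip6, Git1, Yes1 and Rap1a held only without vector 1, those of Limd1 and Ptpn1 without vector 1 or vector 2, that of Ehd2 without vector 1 or miR-34a 2, and that of Ptpra in 0 of the 6 fits. Of the 8 other integrin subunits measured, 0 passed (limma, with Itgax and Itgb2l at an unadjusted p of 0.0232 and 0.0133). The leukocyte chain Itgb2 had 519.8, 528.3 and 519.9 in miR-34a arrays and 332.6, 548.5 and 624.8 in vector arrays. Its difference was 0.10, and -0.16 without vector 1, and it is named here after its values were seen.

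**Figure D5:**
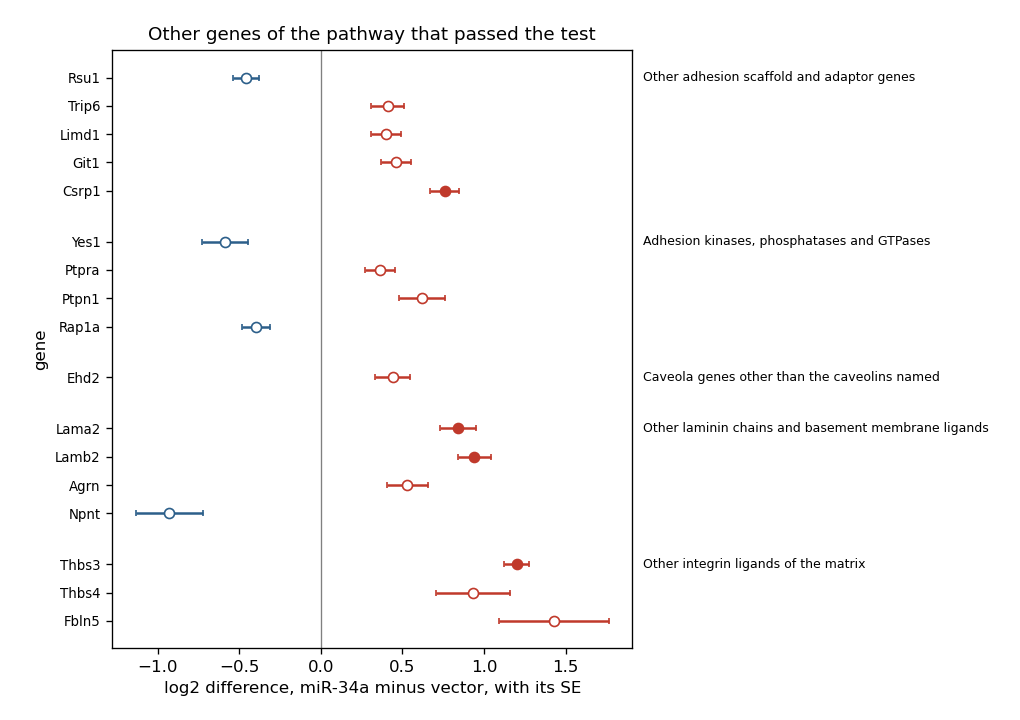
Log2 difference, miR-34a minus vector, with its SE (bars), of the 17 genes of the 6 other lists that passed the test, higher ones in red and lower ones in blue, filled where the call held without any 1 array. Csrp1, Lama2, Lamb2 and Thbs3 are filled, at 0.76, 0.84, 0.94 and 1.20, and Rsu1, Yes1, Rap1a and Npnt lie to the left of 0.

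The promoters of the 3 members that rose by their brightest probe set are shown because ZEB1, high in this line per the labels, is known to bind the E-box CACCTG. Zeb1 itself differed by 0.03 between the groups, as given above. They are the 250 bases before the annotated start, from RefSeq on GRCm38.p6, with CACCTG on either strand in capitals. Itgb5 is at chr16:33829415-33829664, plus strand, Lama5 at chr2:180225860-180226109, minus strand, and Ilk, by the more upstream of its 2 starts, at chr7:105736340-105736589, plus strand.
Itgb5: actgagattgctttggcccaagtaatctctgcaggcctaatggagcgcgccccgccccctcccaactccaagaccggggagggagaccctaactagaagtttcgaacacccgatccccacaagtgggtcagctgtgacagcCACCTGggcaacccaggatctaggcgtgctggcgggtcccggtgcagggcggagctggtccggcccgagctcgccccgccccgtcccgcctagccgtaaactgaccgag
Lama5: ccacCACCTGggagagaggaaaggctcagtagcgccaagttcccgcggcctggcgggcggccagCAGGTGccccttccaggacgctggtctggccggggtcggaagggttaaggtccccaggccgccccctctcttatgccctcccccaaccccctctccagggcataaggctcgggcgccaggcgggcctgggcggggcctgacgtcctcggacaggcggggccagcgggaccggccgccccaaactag
Ilk: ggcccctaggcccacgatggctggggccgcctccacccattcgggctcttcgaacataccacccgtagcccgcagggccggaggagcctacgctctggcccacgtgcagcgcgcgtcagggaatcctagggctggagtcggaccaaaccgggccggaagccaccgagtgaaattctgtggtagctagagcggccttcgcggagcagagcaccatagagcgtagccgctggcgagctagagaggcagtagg
Of the members, 27 of 35 matched to 36 promoter windows. The motif CACCTG was found in 8 of the 36 (22.2%), beside 17.2% of all 32851 windows of the same length, among them 1 site in Itgb5 and 2 in Lama5. The other genes with it were Cav1, Itga3, Itga9, Itgb6, Lamb3 and Tns3, of which the 5 measured did not pass. GGGCGG on either strand, the GC box, was in 19 of 36 (52.8%), beside 32.7% of all windows. The median GC content of the windows was 62.2% for members and 52.4% for all. CATTCC, the TEAD motif, was in 4 windows (11.1%, beside 12.6%) and TGANTCA, the AP-1 motif, in 2 (5.56%, beside 6.75%), both strands counted. Each motif was searched on its own, so matches of different motifs may share bases. These are matches of letters, and no binding was measured.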

How the data were processed

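Per the labels' protocols, biotinylated RNA of 6 samples was measured on Affymetrix arrays. The deposited values are linear probe set intensities. How the authors summarised and normalized these intensities is not given in the sources used here. The medians per array, 466.7 to 484.2, lay close together, so the values were taken as already scaled, and the lowest value was 1. Groups and replicate numbers came from the sample titles. Batch information was not analysed here.

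Probe sets were named from the platform annotation, with symbols updated by Entrez identifier through the GRCm38.p6 RefSeq gene table. Of 22690 probe sets, 64 were controls and left out, 691 had several symbols and 1555 were not listed. Each of the 12393 genes was represented by 1 of 20380 probe sets, the one with the highest mean of log2(intensity + 16). That scale understates changes of dim genes.

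A two-sided limma test (version 3.58.1, R 4.3.3; lmFit, then eBayes) compared miR-34a minus vector, with Benjamini-Hochberg adjustment over all genes at 0.05. The code was tested on simulated data. The members, the 6 lists of other pathway genes and the 10 marker lists were chosen with earlier results of these data known, so no p-value was adjusted over a list alone. All members were named, with full statistics for the 10 of smallest unadjusted p. Of each other list, genes past the threshold were named, up to 4 of smallest p where there were more, and Trip6, Fn1, Itgb2, Itgax, Itgb2l and the uncalled markers, outside this rule, were named after their values were seen. The 13 alternatives were pseudocounts of 1 and 64, quantile normalization, leaving out the 4131 dimmest genes, the mean of all probe sets, a block on replicate number, each of the 6 arrays left out and, added after seeing the data, the probe set with the highest mean intensity. Fitting each probe set on its own was also added then. Promoter and miRNA sequences came from RefSeq tables. Plots were made in Python 3.11.15 (matplotlib 3.10.9).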

Additional observations from a re-analysis of the deposited data

How the results depend on the processing

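With 3 arrays per group, most calls were lost in at least 1 fit without 1 array. Such fits have fewer arrays, so a lost call does not show by itself that a difference rested on 1 array. Without a miR-34a array the difference was 1.20 to 1.28 for Itgb5 (1.23 with all arrays). It was 0.50 to 0.57 for Lama5 (0.53) and 0.41 to 0.47 for Ilk (0.45). Members higher in miR-34a numbered 3 in the reported setting and 0 to 4 in the 6 fits without 1 array, 0 without any 1 of the miR-34a arrays. Members lower numbered 0, and 0 to 2 in those fits, 1 under quantile normalization (Tns1), 1 with the 4131 dimmest genes left out (Tns1) and 2 by the mean of all probe sets (Itgav and Lims1). Among all genes, 1456 passed, and 226 to 2133 did in the fits without 1 array. With the dimmest genes left out, 1524 of 8262 (18.4%) passed. Of the other pathway genes, 13 higher and 4 lower became 4 to 19 higher and 0 to 7 lower without 1 array, and the mean of all probe sets gave 7 lower.

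The groups share replicate numbers, but the deviations of same-numbered arrays from their group means correlated at -0.168, -0.094 and -0.081, so the numbers did not pair the samples. No array correlated best with its own number. With the number as a replicate block, 522 of all genes passed, 2 members were higher (Itgb5 and Lama5, with Ilk at a limma adjusted p of 0.0832) and 0 lower, and 5 other pathway genes were higher and 1 lower.

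Itgb5, Lama5 and Ilk stayed above 0 under all 13 alternatives, with limma adjusted p of 0.00216 to 0.084, 0.0151 to 0.0914 and 0.0207 to 0.108. Of 412 alternative values of single members 372 kept their direction and side of the threshold, 8 passed only under the alternative, 12 no longer passed and 20, in 14 members that did not pass, changed sign. By the mean of all probe sets, which averages probe sets of both signs, these were Itga3 (-0.035), Itga6 (0.10), Itga9 (-0.05), Itgav (-0.45, past the test at a limma adjusted p of 0.028), Tln1 (-0.031), Vcl (-0.35), Tns1 (0.21), Src (0.21) and Pxn (-0.16). Over the 6 fits without 1 array the differences of members that changed sign ran from -0.06 to 0.20 in Itga3, -0.34 to 0.011 in Itga5, -0.09 to 0.14 in Itga7, -0.016 to 0.18 in Itga9, -0.09 to 0.0029 in Itgb6, -0.07 to 0.07 in Itgb7 and -0.19 to 0.14 in Lims2. The cause of these changes was not tested beyond that. Dim members such as Itga8 and Itgb3 have no detection call, so their values may lie at background.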
